A study of Mus musculus with 6 samples.

Results

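The thin filament of striated muscle was described through 10 genes, matched by symbol to the Ensembl gene identifiers of the count tables: skeletal actin (Acta1), the fast troponins Tnnt3, Tnni2 and Tnnc2, the slow troponins Tnnt1, Tnni1 and Tnnc1, and the tropomyosins Tpm1, Tpm2 and Tpm3. They are 10 of the 54232 gene identifiers in each table, and all 10 had enough reads to be tested. The samples were polyA RNA libraries of mouse esophagus, peeled and enriched for invading cells. There were 3 libraries from mice given DTA-1, an antibody that activates the T cell receptor GITR, and 3 from mice given an isotype control antibody. All mice of both groups had received the carcinogen 4-nitroquinoline 1-oxide (4-NQO) at 100 µg/ml in drinking water for 16 weeks from 8 weeks of age, and then plain water for 12 weeks. In both groups 10 µg of antibody was injected 2 times a week, starting 2.5 weeks before sacrifice. Whether the libraries came from separate mice is not stated in the labels, and p-values therefore measure only the spread between these libraries, part of which may be technical. Values of single libraries are given in the order of replicates 1, 2 and 3 of each group. The comparison asks how the tissue differs after GITR activation in carcinogen-treated mice.

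The thin filament is built on a helix of actin. Tropomyosin, a coiled coil, lies along the actin, and a troponin complex of 3 subunits sits on it: troponin T binds tropomyosin, troponin I holds the filament in the off state, and troponin C binds the calcium that releases it. Fast and slow fibers of skeletal muscle use separate troponin genes, and in the mouse, unlike in humans, striated muscle makes up the muscle coat along nearly the whole length of the esophagus.

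All 10 genes had higher mean levels in DTA-1 than in isotype libraries, but none passed the test across all genes. The fitted log2 fold changes of DTA-1 over isotype were between 0.29 (Tnnc1) and 0.96 (Tnni2), with a median of 0.79. The median over all 15763 genes tested was -0.03, and 47.1% of them had a positive fold change. With the quasi-likelihood test of edgeR and Benjamini-Hochberg adjustment, 0 of the 10 genes passed an adjusted p of 0.05, as did 0.0% of all genes tested, and the smallest adjusted p of any gene was 0.39. At an unadjusted p under 0.05, the same edgeR test marked 1 of the 10 genes as higher, Tnni2, against 5.21% of all genes tested. For 5 genes, Acta1, Tnnt3, Tnni2, Tpm1 and Tpm2, no isotype library reached the lowest DTA-1 library, which was the case for 8.6% of all genes tested. DESeq2 also called 0 of the 10 genes, against 0.267% of 16084 genes higher and 0.852% lower. limma-voom called 0 genes in all, with 2172 under an unadjusted p of 0.05, against 2006 by edgeR. In bulk tissue, fewer cells of a type and less RNA per cell cannot be told apart, and this holds for each value given here.

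Which genes DESeq2 called depended on single libraries. Without DTA-1 replicate 1 it called 5 of the 10 genes as higher (Tnnt3, adjusted p = 0.0247, Tnni2, 0.0132, Tpm1, 0.00215, Tpm2, 0.000514, and Tnnt1, 0.046), against 5.48% of all genes. Without isotype replicate 3 it called 5 as higher (Acta1, adjusted p = 0.0271, Tnnt3, 0.008, Tnni2, 0.00612, Tpm1, 0.0193, and Tpm2, 0.0267), against 4.05% of all genes. Without any other single library DESeq2 called 0 of the 10. edgeR called 0 of the 10 with any 1 library left out.

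The libraries held 23766069 to 23914043 counts in the DTA-1 group and 23147873 to 29065162 in the isotype group. At these depths a gene with 3 reads stands between 0.108 and 0.141 counts scaled to a common library size (CPM), and this floor covers counting error only. No 2 libraries matched within sampling noise. Defining genes of striated muscle were abundant in every library: creatine kinase Ckm had 7509, 12000.0 and 6384 CPM in the 3 DTA-1 libraries, against 3234, 3094 and 7300.1 CPM in the 3 isotype libraries. DTA-1 replicate 1 and isotype replicate 3 differed least of all 15 pairs of libraries, with a median chi-square per gene of 3.98 against 0.455 for sampling noise alone.

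**Figure D1:**
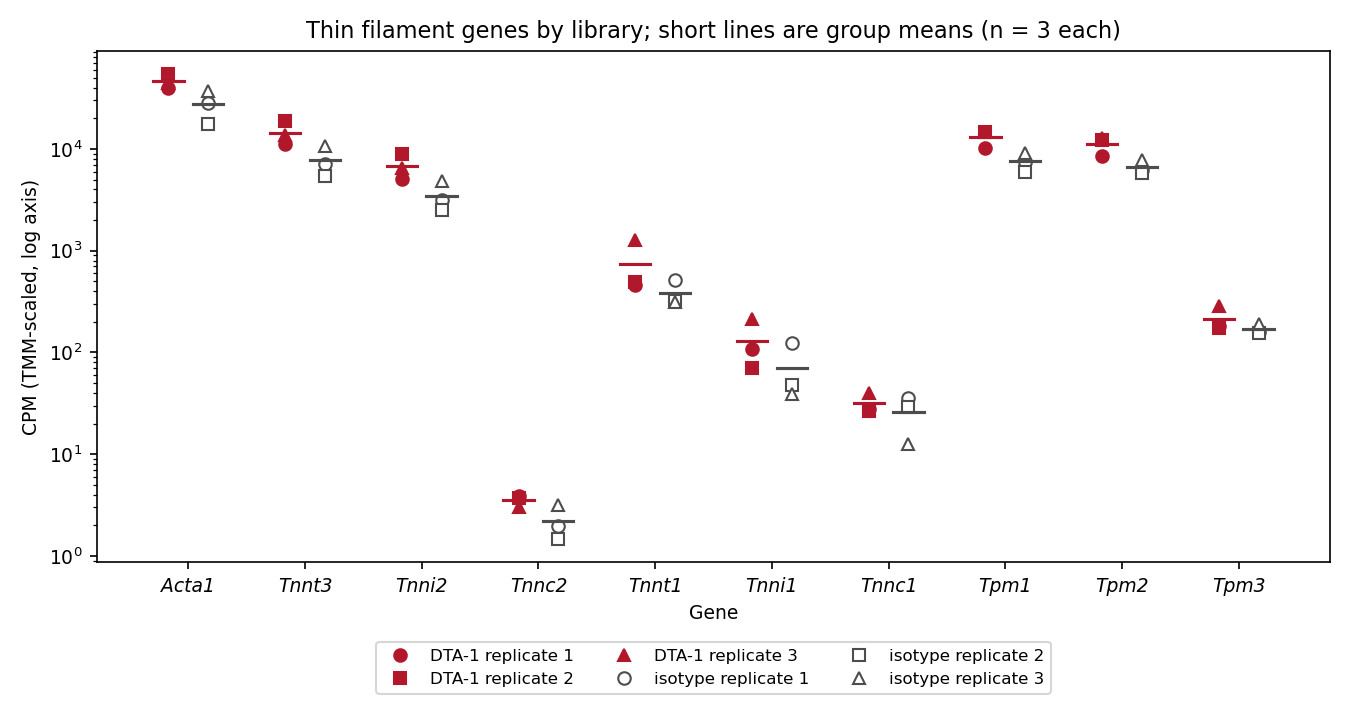
CPM of the 10 thin filament genes on a log axis, with 1 point per library, DTA-1 libraries left and isotype libraries right of each gene, and short lines at the group means (n = 3 each). Acta1, Tnnt3, Tnni2, Tpm1 and Tpm2 show no overlap between the groups, while the slow troponins are led by DTA-1 replicate 3.

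Acta1, the main actin of adult skeletal muscle, was the most abundant of the 10. It had 39377, 54567 and 44345 CPM in the 3 DTA-1 libraries, against 28162, 17704 and 36834 CPM in the 3 isotype libraries. All DTA-1 libraries were above all isotype libraries, with DTA-1 replicate 2 highest and isotype replicate 2 lowest. The means were 46096 ± 7745 CPM in DTA-1 libraries and 27567 ± 9579 CPM in isotype libraries (SD, n = 3 each). The log2 fold change was 0.74 ± 0.43 (SE), with an edgeR adjusted p of 0.458 and a DESeq2 adjusted p of 0.231. This single gene took 3.81%, 4.87% and 4.33% of all counts in the 3 DTA-1 libraries, against 3.03%, 2.03% and 3.51% in the 3 isotype libraries. Acta1 (ENSMUSG00000031972) lies on the minus strand of GRCm38 at chr8:123891769-123894751. Of its 50-base transcript words, 2.02% also occur in other genes, cytoplasmic actin among them.

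The 10 genes together took 7.25%, 9.82% and 9.18% of the counts of the 3 DTA-1 libraries, against 5.69%, 4.35% and 6.67% in the 3 isotype libraries. Every DTA-1 share was thus above every isotype share. The mean share was 8.75% ± 1.34 for DTA-1 libraries and 5.57% ± 1.16 for isotype libraries (SD, n = 3 each), 3.18 percentage points apart. Set against counts outside the striated muscle lists, the 10 genes had 8.81, 12.9 and 11.4 reads per 100 in the 3 DTA-1 libraries, against 6.46, 4.81 and 7.98 per 100 in the 3 isotype libraries. A share of all counts also moves with the other tissue in a library. The 12 squamous epithelial markers, all with negative fold changes, summed to 33845, 9036 and 10387 CPM in the 3 DTA-1 libraries, against 37551, 42923 and 43512 CPM in the 3 isotype libraries. None of these 12 markers was at 0 in any library, and the part of this difference in the muscle values was not tested. The 7 immune markers, 6 of them with negative fold changes, summed to 1257, 409 and 551 CPM in the 3 DTA-1 libraries, against 1464, 1906 and 1461 CPM in the 3 isotype libraries. Nearly all of this was S100a8, which squamous epithelium also makes. The sum of the other 6 markers overlapped between the groups, at 33.9, 49.1 and 69.6 CPM in the 3 DTA-1 libraries and 127, 78.6 and 28.2 CPM in the 3 isotype libraries. Among these 6, every DTA-1 library was below every isotype library for Cd3e and above for Cd79a. Of the 15763 genes tested, 1479 were separated in this way below and 1355 above. Cd3e and Cd79a had at most 36 reads in any library. DESeq2 called Itgax lower (adjusted p = 0.049), against 0.852% of all genes. The part of the immune markers was not tested either. All 4 red cell markers were high in DTA-1 replicate 2 alone, the highest library for Acta1, Tnnt3, Tnni2 and Tpm1. They summed to 95.8, 2665 and 108 CPM in the 3 DTA-1 libraries, against 89.1, 158 and 76.9 CPM in the 3 isotype libraries.

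Troponin T and troponin I of the fast type had the largest fold changes among the 5 of the 10 genes whose groups did not overlap. Tnnt3, the fast troponin T that anchors the complex to tropomyosin, had 11162, 18725 and 13632 CPM in the 3 DTA-1 libraries, against 7062, 5483 and 10732 CPM in the 3 isotype libraries. All DTA-1 values were above all isotype values, although DTA-1 replicate 1 exceeded isotype replicate 3 by little. In the fit across all genes Tnnt3 had a log2 fold change of 0.90 ± 0.40 (SE), with an edgeR adjusted p of 0.399 and a DESeq2 adjusted p of 0.159. Tnni2, the fast inhibitory subunit, had 5017, 8847 and 6547 CPM in the 3 DTA-1 libraries, against 3124, 2491 and 4843 CPM in the 3 isotype libraries. The order of the 6 libraries was the same as for Tnnt3, with DTA-1 replicate 2 highest and isotype replicate 2 lowest. For Tnni2 the fitted difference on the log2 scale was 0.96 ± 0.39 (SE), with an edgeR adjusted p of 0.39 and a DESeq2 adjusted p of 0.138. Both genes lie on the plus strand of chromosome 7 with Lsp1 between them, Tnni2 (ENSMUSG00000031097) at chr7:142441808-142444410 and Tnnt3 (ENSMUSG00000061723) at chr7:142498836-142516009.

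The 2 fast subunits kept almost the same proportion in every library. Per kilobase of exon, Tnnt3 had 2.10, 2.0 and 1.97 reads for each Tnni2 read in the 3 DTA-1 libraries, against 2.14, 2.08 and 2.10 in the 3 isotype libraries. The coefficient of variation of this ratio over the 6 libraries was 3.16%, against 26.2% for the slow pair Tnnt1 over Tnni1. The slow ratio was 6.90, 11.5 and 9.81 in the 3 DTA-1 libraries, against 6.80, 10.9 and 13.3 in the 3 isotype libraries. Acta1 over Tnnt3 varied by 10.6% and Acta1 over Tpm2 by 16.9%. These pairs were chosen after their values were seen and are given as a description.

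Tnnc2, the fast calcium-binding subunit, stood far below its fast partners. It was counted with 90, 79 and 71 reads in the 3 DTA-1 libraries, against 54, 39 and 87 reads in the 3 isotype libraries. These are 3.91, 3.72 and 3.04 CPM with DTA-1, against 1.99, 1.47 and 3.14 CPM with isotype. The groups overlapped, because isotype replicate 3 exceeded DTA-1 replicate 3. The log2 fold change was 0.69 ± 0.37 (SE), with an edgeR adjusted p of 0.433 and a DESeq2 adjusted p of 0.383. Per kilobase of exon, Tnni2 had 681 to 1262 times the reads of Tnnc2 in DTA-1 libraries and 820 to 893 times in isotype libraries. In a troponin complex the subunits stand in equal numbers.

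Tnnc2 (ENSMUSG00000017300, chr2:164777161-164779967, minus strand, GRCm38) is the 1 gene of the 10 whose exons lie under those of another gene. Exon 6 of Ube2c, a ubiquitin-conjugating enzyme gene of the cell cycle, runs on the opposite strand at chr2:164777190-164778822. It covers 592 of the 800 exon bases of Tnnc2 (74.0%). The coding exon 4 of transcript Tnnc2-201 is shown because all its 115 bases lie inside that Ube2c exon, as the capitals mark.
Tnnc2 exon 4 (chr2:164777731-164777845, minus strand): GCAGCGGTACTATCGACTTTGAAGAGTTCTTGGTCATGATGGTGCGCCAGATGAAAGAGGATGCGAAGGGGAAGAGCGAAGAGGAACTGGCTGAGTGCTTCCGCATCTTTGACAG
Ube2c itself had 20.5, 7.73 and 5.18 CPM in the 3 DTA-1 libraries, against 18.8, 20.9 and 14.4 CPM in the 3 isotype libraries. Its highest values, in isotype replicate 2 and DTA-1 replicate 1, stood beside the lowest and the highest Tnnc2 value. Whether reads were assigned by strand is not given in the sources used here, so Tnnc2 reads may be missing from these counts and its level is uncertain. If all Tnnc2 reads came from the 208 exon bases outside Ube2c, its level would be 18.8, 17.9 and 14.6 CPM per kilobase in the 3 DTA-1 libraries. In the 3 isotype libraries it would be 9.57, 7.07 and 15.1. The 208 bases are counted over all annotated exons. In transcript Tnnc2-201 alone, 592 of 700 bases (84.6%) lie under exon 6 of Ube2c. Fewer bases are then free, and the Tnnc2 level would be higher than these values. Tnni2 had 1664 to 5910 CPM per kilobase over the 6 libraries. The effect of the overlap on the counts and the cause of the low level were not tested.

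The slow troponins were higher on average with DTA-1, but the groups overlapped for all 3 and DTA-1 replicate 3 was the highest library for each. Tnnt1, the slow troponin T, had 458, 497 and 1268 CPM in the 3 DTA-1 libraries, against 515, 319 and 314 CPM in the 3 isotype libraries. DTA-1 replicates 1 and 2 were both below isotype replicate 1. For Tnnt1 the log2 fold change was 0.95 ± 0.45 (SE), with an edgeR adjusted p of 0.405 and a DESeq2 adjusted p of 0.262, and it was 0.32 without DTA-1 replicate 3. Tnni1, the slow inhibitory subunit, had 108, 70.7 and 211 CPM in the 3 DTA-1 libraries, against 124, 47.7 and 38.7 CPM in the 3 isotype libraries. Isotype replicate 1 again exceeded DTA-1 replicates 1 and 2. For Tnni1 it was 0.89 ± 0.55 (SE), with an edgeR adjusted p of 0.479 and a DESeq2 adjusted p of 0.398, and it was 0.36 without DTA-1 replicate 3.

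Tnnc1, the troponin C of slow skeletal and of heart muscle, had 27.6, 26.7 and 40.3 CPM in the 3 DTA-1 libraries, against 35.5, 29.2 and 12.7 CPM in the 3 isotype libraries. Isotype replicate 3 was the lowest library and DTA-1 replicate 3 the highest, with the other 4 between 26.7 and 35.5 CPM. The log2 fold change was 0.29 ± 0.38 (SE), with an edgeR adjusted p of 0.732 and a DESeq2 adjusted p of 0.749, and it was -0.01 without isotype replicate 3. The adipocyte markers were also highest in DTA-1 replicate 3. The 5 markers together summed to 162, 151 and 924 CPM in the 3 DTA-1 libraries, against 112, 335 and 137 CPM in the 3 isotype libraries. Of these markers Lep was near the floor in 4 libraries and none was at 0 in all. Their part in the slow troponin values was not tested. Tnnt1 (ENSMUSG00000064179) lies at chr7:4504570-4516382 on the minus strand, 1923 bases from the cardiac troponin I gene Tnni3. Tnni1 (ENSMUSG00000026418) lies at chr1:135779434-135810989 and Tnnc1 (ENSMUSG00000091898) at chr14:31208312-31211729, both on the plus strand of GRCm38.

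**Figure D2:**
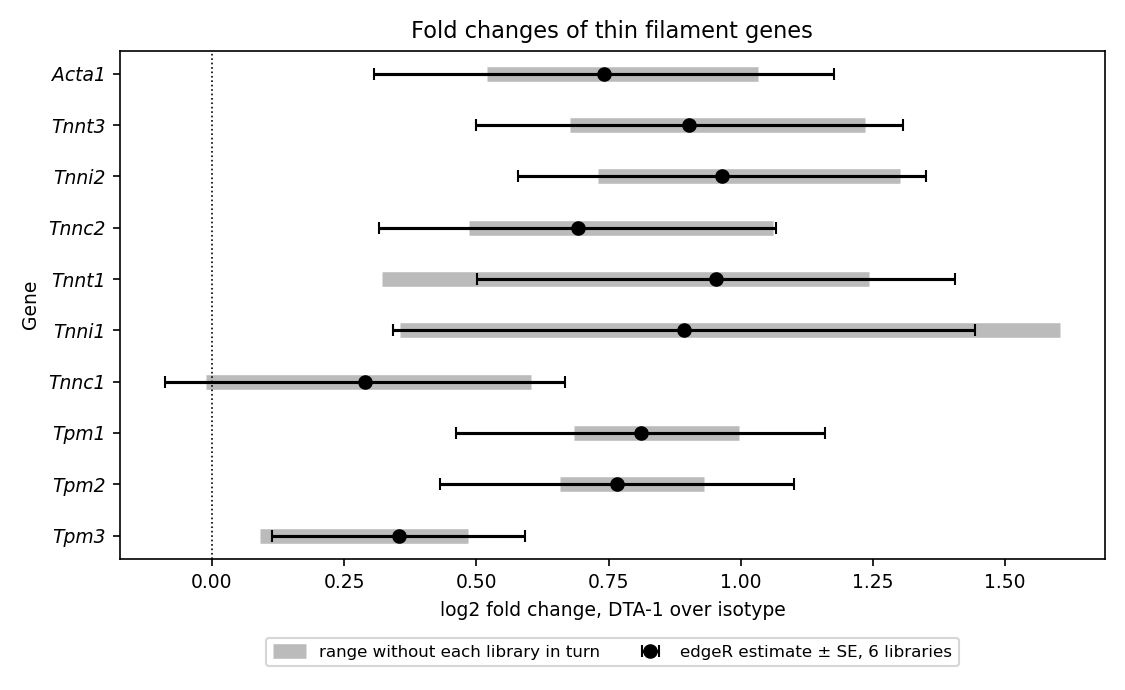
Log2 fold changes of DTA-1 over isotype for the 10 genes, with points and bars for the edgeR estimate ± SE over 6 libraries and grey bands for the range when each library was left out in turn. The bands of Tnnt1, from 0.32 to 1.24, and Tnni1, from 0.36 to 1.60, are the widest, that of Tnnc1 reaches -0.01, and those of Tpm1 and Tpm2 are narrow.

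The proportion of fast to slow troponin did not differ detectably between the groups. A ratio of 2 genes within a library needs no library scaling, and 5 ratios were tested with a two-sided exact permutation test over libraries, for which 3 against 3 allows no p below 0.10. Per kilobase of exon, Tnnt3 over Tnnt1 was 33.9, 52.5 and 14.97 in the 3 DTA-1 libraries, against 19.1, 24.0 and 47.5 in the 3 isotype libraries. The difference in mean log2 ratio was 0.10 (exact p = 0.90), and both groups spanned nearly the same range. Tnni2 over Tnni1 was 111, 301 and 74.6 in the 3 DTA-1 libraries, against 60.7, 126 and 301 in the 3 isotype libraries. The difference in mean log2 ratio was 0.04 (exact p = 0.90). DTA-1 replicate 2 and isotype replicate 3 had the highest ratio of their group for both subunits, so the libraries differed more within the groups than between them.

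In terms of a share, slow Tnnt1 made up 2.87%, 1.87% and 6.26% of troponin T reads per kilobase in the 3 DTA-1 libraries, against 4.98%, 4.01% and 2.06% in the 3 isotype libraries. Slow Tnni1 made up 0.891%, 0.331% and 1.32% of troponin I in the 3 DTA-1 libraries, against 1.62%, 0.790% and 0.332% in the 3 isotype libraries. Fast genes thus supplied nearly all troponin T and troponin I reads in all 6 libraries. For troponin C the ratio of Tnnc2 over Tnnc1 was 0.185, 0.183 and 0.0988 in the 3 DTA-1 libraries, against 0.0737, 0.0664 and 0.322 in the 3 isotype libraries. It differed by 0.36 on the log2 scale (exact p = 0.80) and cannot be read as a fiber type measure while the Tnnc2 count is uncertain.

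**Figure D3:**
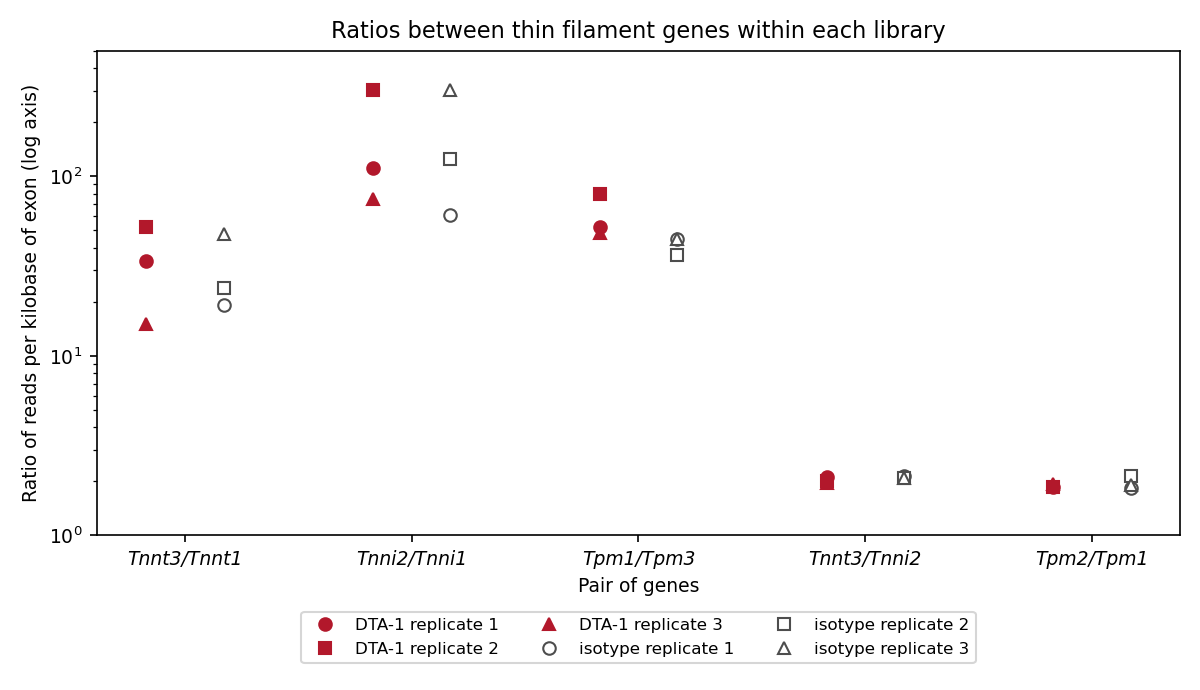
Ratios of reads per kilobase of exon between pairs of thin filament genes in each library, on a log axis, with DTA-1 libraries left and isotype libraries right of each pair. The fast-to-slow ratios spread from 14.97 to 52.5 for troponin T and from 60.7 to 301 for troponin I, while Tnnt3 over Tnni2 stays between 1.97 and 2.14 in all 6 libraries.

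Tropomyosins Tpm1 and Tpm2 had the smallest standard errors of the 5 genes with separated groups. Tpm1, the alpha tropomyosin of fast fibers and heart that smooth muscle also uses, had 10194, 14780.2 and 14721 CPM in the 3 DTA-1 libraries, against 7525, 5965 and 9137 CPM in the 3 isotype libraries. All DTA-1 values were above all isotype values. The log2 fold change was 0.81 ± 0.35 (SE), with an edgeR adjusted p of 0.395 and a DESeq2 adjusted p of 0.107. Tpm2, the beta tropomyosin, had 8491, 12258 and 12818 CPM in the 3 DTA-1 libraries, against 6199, 5758 and 7778 CPM in the 3 isotype libraries. Here too the groups did not overlap, and DTA-1 replicate 3 was highest. For Tpm2 it was 0.77 ± 0.33 (SE), with an edgeR adjusted p of 0.397 and a DESeq2 adjusted p of 0.111.

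Tpm3, the slow-fiber tropomyosin gene that also gives non-muscle isoforms, had 183, 175 and 287 CPM in the 3 DTA-1 libraries, against 158, 154 and 192 CPM in the 3 isotype libraries. Isotype replicate 3 was above DTA-1 replicates 1 and 2. Its log2 fold change was 0.35 ± 0.24 (SE), with an edgeR adjusted p of 0.512 and a DESeq2 adjusted p of 0.537, and it was 0.09 without DTA-1 replicate 3. The level of Tpm3 is uncertain, because 40.0% of its 50-base transcript words occur in other genes, mainly the near-identical copy Tpm3-rs7, which had 2.39, 1.56 and 2.05 CPM in the 3 DTA-1 libraries, against 0.995, 1.32 and 1.55 CPM in the 3 isotype libraries.

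Tpm1 over Tpm3 was 52.3, 79.4 and 48.2 per kilobase in the 3 DTA-1 libraries, against 44.6, 36.3 and 44.6 in the 3 isotype libraries. All DTA-1 ratios were above all isotype ratios, with DTA-1 replicate 2 standing out. The mean log2 ratio of reads was 5.96 ± 0.39 for DTA-1 libraries and 5.47 ± 0.17 for isotype libraries (SD, n = 3 each), a difference of 0.49 with an exact p of 0.10, the smallest the design allows. With Benjamini-Hochberg adjustment over the 5 ratios its exact p became 0.50, and that of the other 4 became 0.90. Tpm2 over Tpm1 was 1.86, 1.85 and 1.94 in the 3 DTA-1 libraries, against 1.84, 2.15 and 1.90 in the 3 isotype libraries. It differed by -0.06 on the log2 scale (exact p = 0.70).

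Smooth muscle also carries Tpm1 and Tpm2. Of its 10 markers only desmin (Des), which striated muscle shares, had groups that did not overlap. Myh11, the smooth muscle myosin, had 994, 143 and 2519 CPM in the 3 DTA-1 libraries, against 112, 2895 and 2073 CPM in the 3 isotype libraries. It was lowest in isotype replicate 1 and DTA-1 replicate 2. The 10 smooth muscle markers had 6 positive and 4 negative fold changes, 0 passed edgeR's or DESeq2's test or an unadjusted p of 0.05 by edgeR, and none was at 0 in any library. They summed to 14609, 14882 and 22878 CPM in the 3 DTA-1 libraries, against 8549, 15435 and 17521 CPM with isotype. Des was the largest component. The other 9 summed to 4115, 1715.5 and 10414 CPM in the 3 DTA-1 libraries, against 1189, 9445 and 7160 CPM with isotype. The sum of these 9 thus varied widely within both groups, which overlapped. The part of the smooth muscle markers in the tropomyosin values was not tested. Tpm1 (ENSMUSG00000032366) lies at chr9:67022590-67049406 and Tpm2 (ENSMUSG00000028464) at chr4:43514711-43523765, both on the minus strand, and Tpm3 (ENSMUSG00000027940) lies at chr3:90072649-90100902 on the plus strand of GRCm38.

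Levels can be ranked between genes per kilobase of exon, as RPKM over the union of all annotated exons of a gene, some of which a single transcript need not carry. Averaged over the 6 libraries, Acta1 had 23980 RPKM, Tnnt3 7033, Tnni2 3437, Tpm2 3054, Tpm1 1602, Tnnt1 255, Tpm3 31.5, Tnni1 27.8, Tnnc1 27.5 and Tnnc2 3.60 RPKM. The order of Tnni2 and Tpm2 changed between libraries, and Tpm3, Tnni1 and Tnnc1 could not be ranked among themselves. The other steps of the order held within every library of both groups. The places of Tnnc2 and Tpm3 rest on counts that are uncertain, as stated above.

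Promoter sequences are shown for genes with like profiles over the libraries, Acta1, Tpm1 and Tpm2 with separated groups and the 3 slow troponins led by DTA-1 replicate 3. They are from RefSeq on GRCm38.p6 and span 250 bases before to 50 bases after the annotated start, 5′ to 3′ on the gene's strand. Of the 10 genes 8 had an entry, and Tnnt3 and Tnni2 did not. Capitals mark matches, on either strand, to the CArG box bound by serum response factor, to the MEF2 site, or to the MCAT element CATTCC bound by TEAD factors.
Acta1 promoter (chr8:123894726-123895025, minus strand): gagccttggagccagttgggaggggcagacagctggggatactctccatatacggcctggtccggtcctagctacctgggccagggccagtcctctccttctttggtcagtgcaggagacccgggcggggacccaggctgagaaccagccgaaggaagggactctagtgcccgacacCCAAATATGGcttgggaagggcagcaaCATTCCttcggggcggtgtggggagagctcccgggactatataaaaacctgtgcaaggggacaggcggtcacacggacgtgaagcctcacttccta
Tpm1 promoter (chr9:67049164-67049463, minus strand): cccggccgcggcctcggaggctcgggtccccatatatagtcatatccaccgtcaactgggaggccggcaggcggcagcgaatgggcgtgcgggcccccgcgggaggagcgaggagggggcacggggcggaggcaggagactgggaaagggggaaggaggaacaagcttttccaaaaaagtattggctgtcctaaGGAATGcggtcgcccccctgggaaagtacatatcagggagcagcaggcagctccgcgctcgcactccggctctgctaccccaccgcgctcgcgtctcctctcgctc
Tpm2 promoter (chr4:43523505-43523804, minus strand): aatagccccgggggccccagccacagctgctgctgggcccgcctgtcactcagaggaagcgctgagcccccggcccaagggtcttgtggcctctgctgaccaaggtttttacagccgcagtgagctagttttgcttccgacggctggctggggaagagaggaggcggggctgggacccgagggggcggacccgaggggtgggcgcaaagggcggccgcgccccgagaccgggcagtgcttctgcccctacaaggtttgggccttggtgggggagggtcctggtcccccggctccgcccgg
Tnnt1 promoter (chr7:4515926-4516225, minus strand): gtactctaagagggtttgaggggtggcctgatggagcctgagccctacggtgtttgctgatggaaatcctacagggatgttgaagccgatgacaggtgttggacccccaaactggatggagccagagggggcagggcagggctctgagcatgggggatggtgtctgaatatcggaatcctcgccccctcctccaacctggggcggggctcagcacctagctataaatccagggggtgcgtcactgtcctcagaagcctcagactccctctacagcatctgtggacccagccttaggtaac
Tnni1 promoter (chr1:135799171-135799470, plus strand): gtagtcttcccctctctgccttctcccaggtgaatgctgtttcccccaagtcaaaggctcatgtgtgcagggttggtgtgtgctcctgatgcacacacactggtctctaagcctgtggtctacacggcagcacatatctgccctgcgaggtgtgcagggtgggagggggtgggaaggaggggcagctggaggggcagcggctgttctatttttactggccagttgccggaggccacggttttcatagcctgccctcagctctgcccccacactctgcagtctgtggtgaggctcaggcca
Tnnc1 promoter (chr14:31208062-31208361, plus strand): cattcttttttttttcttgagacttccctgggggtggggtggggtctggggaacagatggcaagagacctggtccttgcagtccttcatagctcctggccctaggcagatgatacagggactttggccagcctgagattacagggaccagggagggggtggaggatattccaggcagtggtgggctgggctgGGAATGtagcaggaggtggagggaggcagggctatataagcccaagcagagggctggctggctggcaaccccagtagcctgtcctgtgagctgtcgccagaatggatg
A CArG box was matched in Acta1 alone, starting at -73 from the start site, and 1.63% of 32851 RefSeq promoters of 300 bases hold one. MCAT was matched in Acta1 at -46, in Tpm1 at -56 and in Tnnc1 at -58, 3 of the 8 genes, against 14.7% of all promoters. The MEF2 site was matched in none of the 8 first entries, against 3.19% of all promoters. The E-box CANNTG of the myogenic factors was matched in all 8, as in 72.3% of all promoters. TATAAA was matched in Acta1 at -7 and in Tnnt1 at -30, against 13.6% of all promoters. Positions count from the RefSeq start, which for Acta1 lies upstream of the GENCODE gene span given above. The motifs searched do not overlap each other in these entries. A match describes the letters and is not evidence of binding.

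The 10 genes were next set against 15 other striated muscle genes of the same library, such as titin (Ttn), the ryanodine receptor Ryr1 and myoglobin (Mb). The mean log2 CPM of those genes was 11.13, 11.68 and 11.08 in the 3 DTA-1 libraries, against 10.20, 9.98 and 11.06 in the 3 isotype libraries, with DTA-1 replicate 3 and isotype replicate 3 almost level. By summed CPM the groups overlapped, at 43672 CPM in DTA-1 replicate 3, against 45269.8 CPM in isotype replicate 3. Relative to them, the difference of DTA-1 minus isotype was -0.10 for Acta1, 0.04 for Tnnt3, 0.10 for Tnni2, -0.13 for Tnnc2, -0.08 for Tpm1 and -0.13 for Tpm2 on the log2 scale. It was -0.06 for Tnnt1, 0.05 for Tnni1, -0.50 for Tnnc1 and -0.56 for Tpm3. The groups overlapped for all 10. The median of these differences was -0.09, and 0.37 when the fast and slow fiber lists were the reference instead, so its sign changed with the reference. Those lists include the slow-fiber genes Myl2 and Myh7, which were high in isotype replicate 2 alone. Myl2 had 1444 reads there and at most 3 in any other library. Their part in the 0.37 was not tested. Over the 6 libraries the levels relative to the 15 genes ranged by 0.34 for Tnnt3, 0.44 for Tnni2 and 0.53 for Acta1. They ranged by 1.99 for Tnnt1, 2.34 for Tnnc1 and 2.54 for Tnni1. Against these 15 genes the slow troponins thus varied more from library to library than the fast troponins and Acta1. The 15 include the fast-fiber genes Actn3 and Atp2a1 and none of the slow-fiber list, so the ranges do not compare both fiber types on equal terms.

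**Figure D4:**
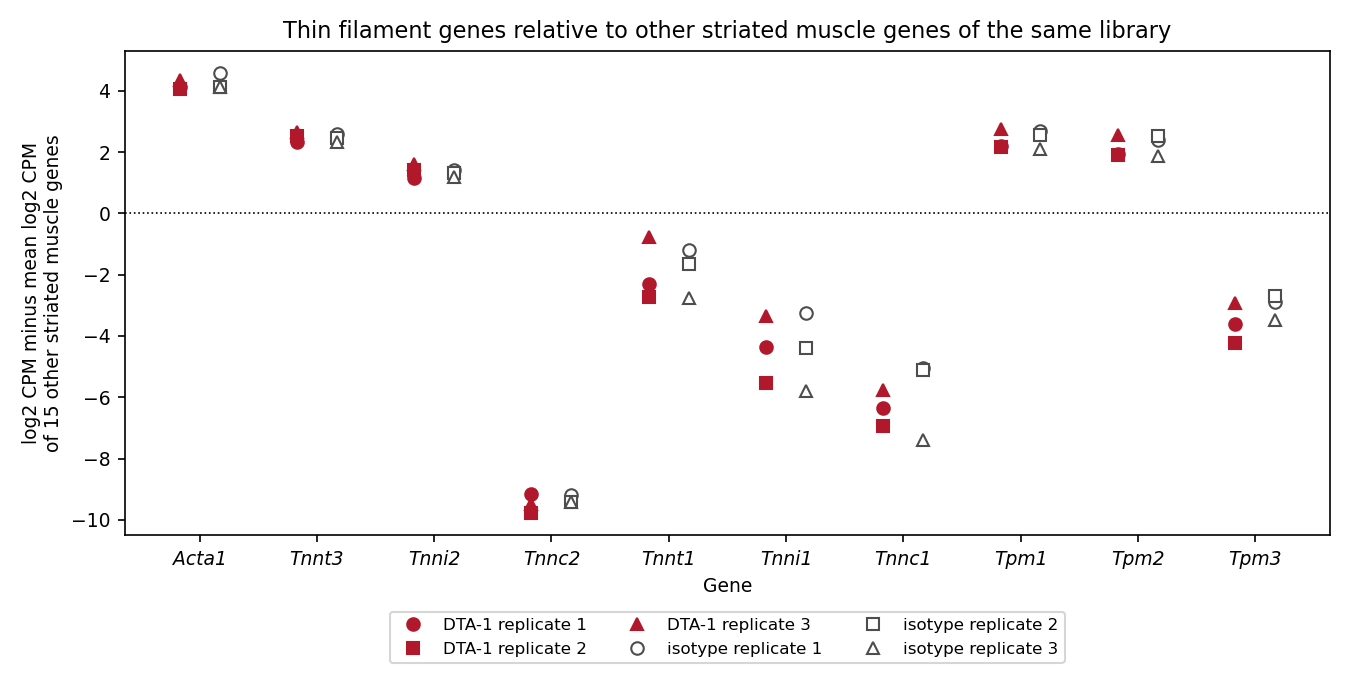
Log2 CPM of each thin filament gene minus the mean log2 CPM of 15 other striated muscle genes in the same library, with DTA-1 libraries left and isotype libraries right of each gene. The groups overlap for all 10 genes, and the slow troponins spread by 1.99 to 2.54 log2 units over the 6 libraries, against 0.34 for Tnnt3.

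Other muscle genes were counted in lists chosen with earlier results of these libraries known. All 15 other striated genes were higher on average, at a median log2 fold change of 0.85, and 0 passed edgeR's test. By edgeR 6 of them were higher at an unadjusted p under 0.05, against 5.21% of all genes tested. Of 12 genes that build or cap the thin filament, 11 were higher on average, the median being 0.75, and 0 passed edgeR's test. At an unadjusted p under 0.05, 6 of the 12 were higher, against 5.21% of all genes tested, and 1 was lower. In 7 of the 12 genes all DTA-1 libraries were above all isotype libraries, against 8.6% of all genes tested. Nebulin (Neb), the ruler protein of the thin filament, had 3493, 5012 and 3749 CPM in the 3 DTA-1 libraries, against 1618, 1776 and 3361 CPM in the 3 isotype libraries. Leiomodin 3 (Lmod3), which nucleates thin filament actin, had 221, 269 and 209 CPM in the 3 DTA-1 libraries, against 102, 87.3 and 158 CPM in the 3 isotype libraries, with a log2 fold change of 1.01 and a DESeq2 adjusted p of 0.0536. For both genes the groups did not overlap.

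The 1 thin filament partner in the other direction was nebulette (Nebl), the relative of nebulin in heart and non-muscle cells. It had 15.4, 9.09 and 8.81 CPM in the 3 DTA-1 libraries, against 22.4, 35.6 and 38.3 CPM in the 3 isotype libraries. All DTA-1 values were below all isotype values, which was the case for 1479 of the 15763 genes tested. The log2 fold change was -1.53 ± 0.31 (SE), and it passed with DESeq2 (adjusted p = 0.00683) but not with edgeR (adjusted p = 0.39). DESeq2 called 0.852% of 16084 genes lower.

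Of 8 paralogs of the 10 genes, 4 had positive and 4 negative fold changes, with a median of -0.06, and 0 passed edgeR's test. At an unadjusted p under 0.05, 1 of the 8 was higher, the cytoplasmic actin Actg1, against 5.21% of all genes tested. The cardiac actin Actc1, which developing and regenerating skeletal muscle also makes, had 383, 1298 and 1159 CPM in the 3 DTA-1 libraries, against 496, 303 and 515 CPM in the 3 isotype libraries. DTA-1 replicate 1 was below 2 of the isotype libraries. Per kilobase, Acta1 had 40.3 to 108 reads for each Actc1 read in DTA-1 libraries and 59.8 to 75.3 in isotype libraries. The cardiac troponin T Tnnt2, also found in embryonic skeletal muscle, had 196, 149 and 265 CPM in the 3 DTA-1 libraries, against 122, 157 and 195 CPM in the 3 isotype libraries, while cardiac troponin I (Tnni3) stayed at or below 1.34 CPM throughout. The cardiac markers Myh6 and Nppa were near or under the floor of 3 reads in all 6 libraries. Nppb and Ryr2, on the same cardiac list, were above it in every library. Nppb had 225, 22 and 32 reads in the 3 DTA-1 libraries, against 117, 103 and 31 reads in the 3 isotype libraries. Ryr2 had 84, 23 and 232 reads with DTA-1, against 23, 159 and 207 reads with isotype. Of the 4 cardiac markers tested, 3 were higher on average, 1 was lower, and 0 passed edgeR's test.

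Myosins and other fiber-type genes were counted in lists of their own. Of 7 fast-fiber genes 6 were higher on average (median 0.84), and of 5 tested slow-fiber genes 4 were (median 0.54), and 0 of either list passed edgeR's test. At an unadjusted p under 0.05, 1 fast and 2 slow genes were higher, against 5.21% of all genes tested. Slow myosin Myh7 had 5.74, 1.84 and 6.12 CPM in the 3 DTA-1 libraries, against 2.25, 86.6 and 2.31 CPM in the 3 isotype libraries. Isotype replicate 2 alone was high, and none of the slow troponins was highest in that library. Perinatal myosin Myh8 had 22451, 28688 and 17397 CPM in the 3 DTA-1 libraries, against 10062, 6480.0 and 20282 CPM in the 3 isotype libraries. All 8 genes of the regenerating muscle list were higher on average (median 0.84), and 0 passed edgeR's test. At an unadjusted p under 0.05, 2 of these 8 were higher, against 5.21% of all genes tested. DESeq2 called none of the genes in these muscle lists except Nebl.

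Among 5456 genes with enough reads, Fhl1 and Adssl1 had the profiles over the 6 libraries nearest to that of the fast troponins. Their root mean square difference from the mean profile of the 3 fast troponins was 0.03 and 0.05 on the log2 scale. That mean includes Tnnc2, whose count is uncertain. Fhl1 had 5538, 7977 and 6132 CPM in the 3 DTA-1 libraries, against 3473, 2556 and 5048 CPM in the 3 isotype libraries. For the mean profile of the 3 slow troponins the nearest genes were farther away: Plin2 at 0.22, Mllt11 at 0.25 and Nes at 0.27. Plin2 had 65.4, 64.6 and 114 CPM in the 3 DTA-1 libraries, against 99.8, 61.3 and 39.8 CPM in the 3 isotype libraries, with DTA-1 replicate 3 high and isotype replicate 3 low as for the slow troponins.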

How the data were processed

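RNA-seq libraries of mouse esophagus were compared, 3 with DTA-1 and 3 with isotype antibody. The authors deposited whole-number read counts per Ensembl gene, without normalization, 1 table per library. The submitters' processing notes list DESeq2 1.14.1, HTSeq 0.6.1p1, STAR and cutadapt 1.13, and the mouse build mm10. What each tool did and whether counting used strand is not stated there, so counts of overlapping or near-identical genes are uncertain. Of 54232 gene identifiers, 153 had no symbol in the annotation table, and all 112 symbols of the gene lists were found. Positions and exon lengths come from GENCODE M21 on GRCm38, the assembly named mm10.

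The filter was filterByExpr at a minimum count of 10 and a minimum total of 15, and scaling was by TMM. In R 4.3.3, edgeR 4.0.16 fitted treatment alone (robust quasi-likelihood) with Benjamini-Hochberg adjustment at 0.05 over all genes. CPM values use TMM-scaled library sizes, and log2 CPM for profiles has a prior count of 2. The mean level of the other striated muscle genes is the mean log2 of CPM plus 0.05. The log2 CPM of each gene set against that mean has nothing added. RPKM divides CPM by the exon union length in kilobases. Ratio tests used log2 of counts plus 0.5. DESeq2 1.42.0, limma-voom (limma 3.58.1), other scalings and filters, the replicate number as a block and each library left out in turn were alternatives; the DESeq2 refits without a library and with the block were chosen after seeing the data. The steps were tested on simulated data.

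The 10 genes and the gene lists were chosen with earlier results of these data known. All 10 were described whatever their values, genes of the listed groups were named beside the count of their list, and the likeness search took the 3 nearest genes whose log2 CPM averaged at least 5, of which 1 is not reported here.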

Additional observations from a re-analysis of the deposited data

How the results depend on the processing

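Each of the 10 genes kept a positive fold change under every scaling, filter, tool and left-out library, except Tnnc1, which was -0.011 by edgeR and -0.001 by DESeq2 without isotype replicate 3. Scaling by library totals alone lowered the median over all genes tested to -0.19, against -0.03 with TMM, and left the 10 genes between 0.10 and 0.82. edgeR called 0 genes in all, and 0 to 601 with 1 library left out, 601 without DTA-1 replicate 1. DESeq2 called 180 genes with all libraries, 2449, 41 and 41 when DTA-1 replicate 1, 2 or 3 was left out, and 180, 56 and 896 when isotype replicate 1, 2 or 3 was. Of the 10 genes it called 5 without DTA-1 replicate 1, and likewise 5 when isotype replicate 3 was dropped. The cause was not tested. Deviations of equally numbered libraries correlated at 0.017, -0.333 and -0.086, and not every library correlated best with its own number. These values showed no pairing by replicate number, but with 3 libraries per group they cannot exclude one. With the replicate block edgeR called 0 genes, DESeq2 called 242 and neither called any of the 10.

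With 1 library left out, the difference in mean log2 ratio was -0.31 to 0.60 for Tnnt3 over Tnnt1, -0.53 to 0.64 for Tnni2 over Tnni1, -0.043 to 1.10 for Tnnc2 over Tnnc1 and -0.10 to 0.012 for Tpm2 over Tpm1. Tpm1 over Tpm3 stayed between 0.27 and 0.63, and by sign flips within the replicate block its exact permutation p was 0.25, the smallest that 3 pairs allow. The difference in the share of the 10 genes was 2.57 to 3.93 percentage points with 1 library left out, and 4.62 per 100 counts outside the striated muscle lists. The median of the 10 genes relative to other striated genes was -0.09, between -0.31 and 0.05 with 1 library left out, and 0.37 against the fiber-type lists. Those lists hold Myl2 and Myh7, which were high in isotype replicate 2 alone. Depth limits Tnnc2, with 39 to 90 reads, and not the abundant genes.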
